A study of Homo sapiens with 6 samples.

Results

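The genes of the human mitochondrial genome were examined in MRC5 lung fibroblasts, an established line of diploid fibroblasts, by RNA-Seq of polyA RNA. They were taken as every row of the count table placed on chromosome M, which gave 37 of 58676 gene identifiers: 2 rRNA genes, 13 protein-coding genes and 22 tRNA genes. The fibroblasts had been kept for 24 h in conditioned media (CM) from ATII cells, an engineered human alveolar type II epithelial line with a transgene that 4-hydroxytamoxifen (4-OHT) switches on. Control ATII CM (n = 3) came from such cells without 4-OHT and 4-OHT ATII CM (n = 3) from cells given it. All 6 libraries are thus one fibroblast line exposed to CM of one engineered epithelial line, and the sources used here do not say whether the replicates were separate cultures, so p-values measure the spread between these libraries, which may be technical. The question was whether CM of the 4-OHT-treated cells changed fibroblast RNA.

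The mitochondrial genome is a small circle present in many copies per cell. It is transcribed along both strands from the control region into long RNAs that hold many genes, and tRNAs lying between the other genes are cut out to release the rRNAs and mRNAs. The proteins are subunits of respiratory complexes I, III and IV and of the ATP synthase, the rRNAs form the mitochondrial ribosome, and polymerases, nucleases and RNA-binding proteins for all of this are made from nuclear genes. Although the genes of a strand share a transcript, their steady levels also depend on processing and decay of each RNA.

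Totals of the libraries ran from 17691849 to 26389449 counts. The first principal component, with 43.4% of the variance, separated the groups, and the second, with 23.3%, set control replicate 2 apart. CPM are counts scaled to a common library total with edgeR's TMM factors. Summed CPM of 8 fibroblast markers were 40246 to 43667 in control and 41932 to 43634 in 4-OHT libraries. Of these 8, COL3A1, LUM and DCN passed the edgeR test given below as higher in 4-OHT libraries, and VIM passed as lower. Summed CPM of 12 epithelial markers were 91.8 to 97.9 in control and 89.7 to 96.0 in 4-OHT libraries. Of the 12, KRT8, KRT18 and KRT19, keratins of simple epithelia, carried nearly all of the sum, while SFTPA1 and NKX2-1, which mark alveolar epithelium, were at 0 in all 6 libraries. Across all genes, 1090 of 19072 tested (5.72%) passed edgeR's quasi-likelihood test at an adjusted p of 0.05.

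Coordinates and strand of all 37 genes in the count table equalled those in GENCODE release 44, and chromosome M of hg38 has 16569 bases. The plus strand of the reference carried 28 of the genes and the minus strand 9, which were MT-ND6 and 8 tRNA genes. The genes are packed tightly, and several stretches are printed here because counts of neighbouring genes bear on each other there. MT-RNR2 (chrM:1671-3229), the large rRNA, abuts MT-TL1, the tRNA for leucine, which lies 2 bases before MT-ND1. The stretch chrM:3200-3336 (plus strand, hg38) has MT-TL1 in capitals.
MT-RNR2 end to MT-ND1 start: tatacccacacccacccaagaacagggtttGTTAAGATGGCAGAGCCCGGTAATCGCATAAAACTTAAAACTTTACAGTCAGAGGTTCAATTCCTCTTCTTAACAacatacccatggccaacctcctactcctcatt

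The protein-coding genes overlap at places. MT-ATP8 and MT-ATP6 share 46 bases, in capitals in the stretch chrM:8497-8602, and MT-ND4L and MT-ND4 share 7 bases, in capitals in chrM:10730-10796.
MT-ATP8 and MT-ATP6: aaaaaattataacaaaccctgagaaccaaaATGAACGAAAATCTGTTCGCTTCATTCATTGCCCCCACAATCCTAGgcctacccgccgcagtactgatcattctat
MT-ND4L and MT-ND4: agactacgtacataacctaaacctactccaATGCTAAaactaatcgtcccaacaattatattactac

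Of the 13 protein-coding genes, 7 end in a complete stop codon. The remaining 6 (MT-ND1, MT-ND2, MT-CO3, MT-ND3, MT-ND4 and MT-CYB) end within one, which polyadenylation is known to complete. The last bases of MT-ND1 (chrM:4233-4262) and of MT-CO1 (chrM:7416-7445), with the final codon or its part in capitals, show both kinds.
MT-ND1 last bases: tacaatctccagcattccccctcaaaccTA
MT-CO1 last bases: ttcgaagaacccgtatacataaaatctAGA

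The most counted tRNA genes, MT-TN and MT-TC for asparagine and cysteine, lie on the minus strand on either side of a 31-base gap that holds the origin of light-strand replication. The gap is in capitals in chrM:5657-5826, shown on the plus strand.
MT-TN, gap and MT-TC: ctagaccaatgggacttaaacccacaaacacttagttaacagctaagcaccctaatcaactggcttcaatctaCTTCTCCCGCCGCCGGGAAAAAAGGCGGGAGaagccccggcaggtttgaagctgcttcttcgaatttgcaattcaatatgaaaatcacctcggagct

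The share of each library taken by the mitochondrial genes is given first for all of them and then by class. All 37 together made up 2.02%, 1.96% and 2.02% of the library total in control replicates 1 to 3 and 1.86%, 2.05% and 1.98% in 4-OHT replicates 1 to 3. The groups overlapped, with means of 2.00% ± 0.0318 and 1.96% ± 0.0974 (SD, n = 3). The difference of -0.0328 percentage points turned to 0.0194 without 4-OHT replicate 1, the lowest library. In bulk samples, fewer mitochondria and less RNA per mitochondrion cannot be told apart.

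The rRNA genes took 0.220%, 0.210% and 0.215% of the control libraries and 0.230%, 0.244% and 0.229% of the 4-OHT libraries. All 3 4-OHT values lay above all 3 control values (0.215% ± 0.00506 against 0.234% ± 0.00807, SD, n = 3). The protein-coding genes took 1.78%, 1.74% and 1.79% against 1.62%, 1.80% and 1.74%, and here the groups overlapped (1.77% ± 0.0270 and 1.72% ± 0.0906). The tRNA genes took 0.0115%, 0.0110% and 0.0121% against 0.0116%, 0.0138% and 0.0125%, also with overlap (0.0115% ± 0.000571 and 0.0127% ± 0.00114). No test was made on these sums.

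**Figure D1:**
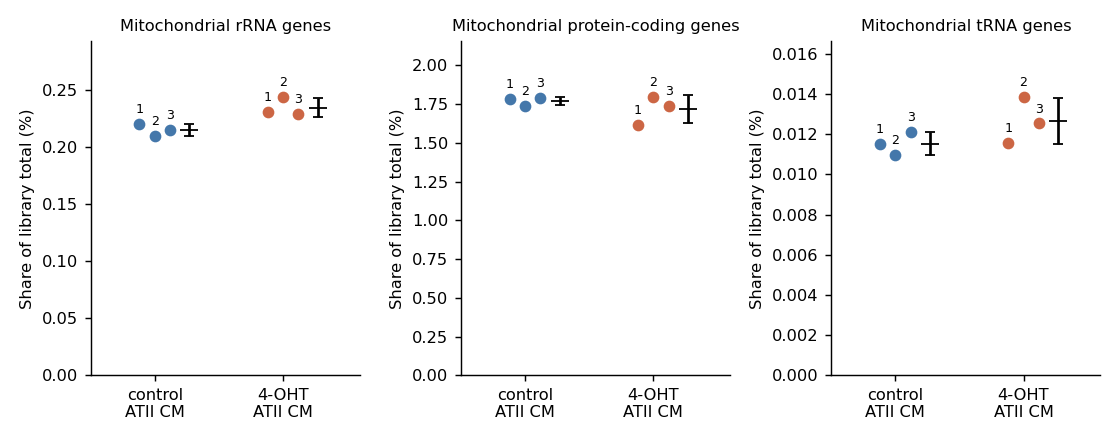
Share of the library total (%, linear axis from 0) of the rRNA, protein-coding and tRNA genes of the mitochondrial genome in each library, numbered by replicate, with mean and SD of each group (n = 3). The groups are apart for the rRNA genes and overlap for the other classes, and 4-OHT replicate 1 has the lowest protein-coding share.

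Per gene, 36 of the 37 passed the filter of 10 counts summed over the libraries. The exception was MT-TF, the tRNA for phenylalanine at chrM:577-647, with 1, 0 and 1 counts in control and 0, 1 and 0 in 4-OHT libraries. Of the 36 genes tested, 1 passed the test, MT-RNR2, which rose. Among all genes tested 5.72% passed, and 2.95% passed as higher. An unadjusted p under 0.05 was found for 9 of the 36, against 17.3% of all genes, and the groups did not overlap for 6 of the 36 (MT-RNR1, MT-TV, MT-RNR2, MT-ND1, MT-TN and MT-TG), against 22.1% of all genes. The median log2 fold change was -0.06 over the 36 and -0.0021 over all genes tested, with 11 estimates above 0 and 25 below.

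Scaled per kilobase of gene, the 15 rRNA and protein-coding genes spanned a 13.9-fold range over the 6 libraries. PolyA RNA was sequenced, so the places of the rRNA genes in the order below need not reflect their RNA levels. MT-CO1 stood first with 3613 ± 125 CPM per kilobase (SD, n = 6), followed by MT-CO2 with 3132 ± 222, MT-CO3 with 2064 ± 122 and MT-ATP6 with 2033 ± 121. These encode the 3 mitochondrial subunits of complex IV, cytochrome c oxidase, and a proton channel subunit of the ATP synthase. MT-ND4 (1614 ± 63.3), MT-ND4L (1409 ± 94.6), MT-RNR2 (1282 ± 73.7) and MT-ND3 (1196 ± 88.3) came next. They were followed by MT-CYB (937 ± 24.5), MT-ND6 (897 ± 59.3), MT-ND1 (594 ± 46.6), MT-ND5 (543 ± 16.4) and MT-ND2 (487 ± 31.5). MT-ATP8 (379 ± 44.9) and MT-RNR1 (261 ± 21.9) were lowest. Of the 14 pairs of neighbours in this order, 7 overlapped in range: MT-CO3 and MT-ATP6, MT-ND4 and MT-ND4L, MT-ND4L and MT-RNR2, MT-RNR2 and MT-ND3, MT-CYB and MT-ND6, MT-ND1 and MT-ND5, and MT-ND2 and MT-ATP8.

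**Figure D2:**
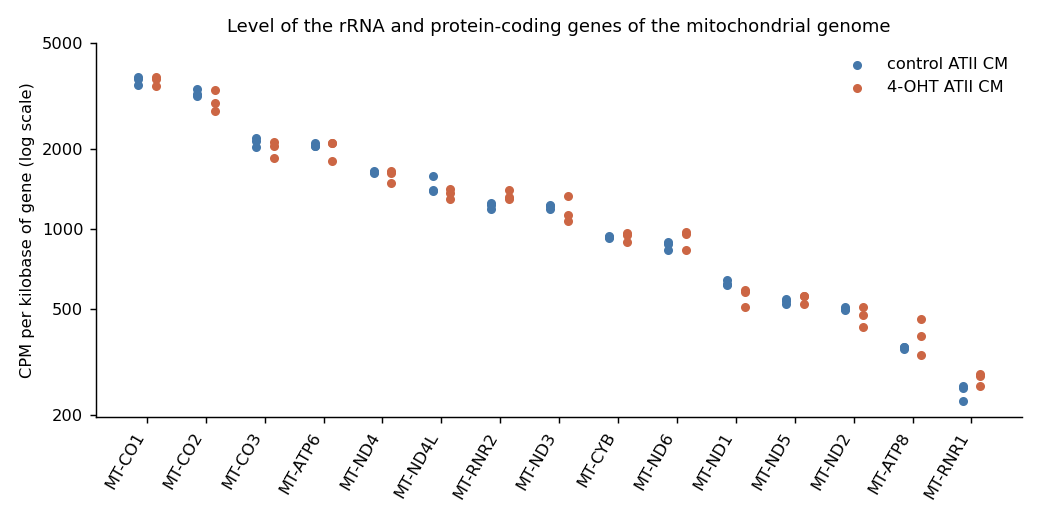
Level of the 2 rRNA and 13 protein-coding genes in CPM per kilobase of gene (log axis), ordered by the mean over 6 libraries, with one point per library. MT-CO1 and MT-CO2 lie above all other genes and MT-RNR1 lies lowest, in both groups. PolyA selection limits how far the rRNA genes can be set beside the others.

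The mitochondrial ribosomal RNAs were the class in which both genes were higher in every 4-OHT library. MT-RNR2, the 16S rRNA of the large subunit, had 1951, 1862 and 1918 CPM in control and 2018, 2186 and 2052 CPM in 4-OHT libraries. It rose from 1910 ± 45.2 to 2086 ± 89.0 CPM (SD, n = 3), a log2 fold change of 0.13 (SE 0.0313, edgeR adjusted p = 0.0248). This call was lost without control replicate 3 (adjusted p = 0.0812), without 4-OHT replicate 2 (0.141) or replicate 3 (0.0706), and with the mitochondrial total as library size (0.235), where the log2 fold change was 0.14.

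MT-RNR1 (chrM:648-1601), the 12S rRNA of the small subunit, had 245, 216 and 242 CPM in control and 274, 269 and 247 CPM in 4-OHT libraries. The groups did not overlap, although 4-OHT replicate 3 exceeded control replicate 1 by little. The log2 fold change was 0.17 (SE 0.0487), and the edgeR adjusted p of 0.0582 missed the threshold. DESeq2 gave an adjusted p of 0.0173 for it and limma-voom 0.0498. MT-RNR1 made up 10.4% to 11.9% of the rRNA counts, with the groups overlapping.

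Taken as a share of the mitochondrial counts, which leaves the nuclear RNAs out, rRNA made up 10.9%, 10.7% and 10.7% in control and 12.4%, 11.9% and 11.6% in 4-OHT libraries. The groups lay apart (10.8% ± 0.134 and 11.9% ± 0.411, SD, n = 3), by 1.18 percentage points. The highest share was in 4-OHT replicate 1, the library with the lowest protein-coding share.

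The 7 subunits of complex I, NADH dehydrogenase, gave no call with all 6 libraries in edgeR with TMM scaling and the filter on low counts. An unadjusted p under 0.05 was found for 2 of the 13 protein-coding genes, MT-ND1 and MT-ND4L, against 17.3% of all genes. MT-ND1 (chrM:3307-4262) had 589, 595 and 615 CPM in control and 487, 567 and 557 CPM in 4-OHT libraries. Its groups did not overlap, the only protein-coding gene of which this held. With means of 599 ± 13.5 and 537 ± 43.1 CPM (SD, n = 3), its log2 fold change was -0.16 (SE 0.0455, edgeR adjusted p = 0.0546). It was called in 9 of 16 alternatives, among them DESeq2 (adjusted p = 0.0120), limma-voom (0.0382) and the replicate block (0.0241), while without 4-OHT replicate 1 the estimate was -0.09 (edgeR adjusted p = 0.217).

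MT-RNR2 and MT-ND1 are separated only by MT-TL1 in the stretch printed above and had estimates of opposite sign. There were 3.32, 3.13 and 3.12 MT-RNR2 counts per MT-ND1 count in control and 4.14, 3.86 and 3.69 in 4-OHT libraries. Since the groups did not overlap for either gene, in opposite directions, the ratio had to separate them and is given as a description.

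MT-ND4L had 471, 412 and 416 CPM in control and 407, 419 and 387 CPM in 4-OHT libraries, with overlap and a log2 fold change of -0.10 (SE 0.0465, edgeR adjusted p = 0.283), or -0.04 without control replicate 1. MT-ND2 had 521, 518 and 533 against 446, 531 and 496 CPM (-0.09, SE 0.0472, adjusted p = 0.332), and its estimate was -0.02 without 4-OHT replicate 1 and -0.15 without 4-OHT replicate 2. MT-ND3 had 422, 413 and 427 against 370, 459 and 392 CPM (-0.05, SE 0.0564, adjusted p = 0.749). The ranges of the groups overlapped for each of these genes, and the 4-OHT values of MT-ND3 lay on both sides of the control values.

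MT-ND4 had 2272, 2234 and 2263 CPM in control and 2050, 2283 and 2239 CPM in 4-OHT libraries (log2 fold change -0.04, SE 0.0338, edgeR adjusted p = 0.586). MT-ND5 had 993, 950 and 976 against 950, 1015 and 1015 CPM (0.03, SE 0.0321, adjusted p = 0.717), and its estimate was 0.07 without 4-OHT replicate 1 and 0.01 without 4-OHT replicate 3. MT-ND6, the only protein-coding gene on the minus strand, had 469, 462 and 439 against 439, 505 and 511 CPM (0.09, SE 0.0478, adjusted p = 0.377). Its estimate was 0.16 and called without 4-OHT replicate 1 (edgeR adjusted p = 0.0316), and 0.05 without 4-OHT replicate 3 (0.779). Summed over the 7 genes, complex I had 5663 ± 77.1 CPM in control and 5508 ± 324 CPM in 4-OHT libraries (SD, n = 3), with overlap.

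Cytochrome b and cytochrome c oxidase genes gave no call with all 6 libraries and the filter on low counts. MT-CYB, the complex III subunit, had 1068, 1056 and 1073 CPM in control and 1023, 1105 and 1086 CPM in 4-OHT libraries (log2 fold change 0.0079, SE 0.0310, edgeR adjusted p = 0.939). MT-CO1, the catalytic subunit of complex IV, had 5648, 5365 and 5741 against 5303, 5756 and 5612 CPM (-0.0071, SE 0.0308, adjusted p = 0.943). It was the most counted mitochondrial gene, with 27.6% to 28.6% of the mitochondrial counts in each library.

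MT-CO2 had 2187, 2164 and 2298 CPM in control and 1900, 2274 and 2031 CPM in 4-OHT libraries (log2 fold change -0.10, SE 0.0473, edgeR adjusted p = 0.292). MT-CO3 had 1670, 1598 and 1718 against 1445, 1667 and 1610 CPM (-0.08, SE 0.0427, adjusted p = 0.378), and its estimate was -0.02 without 4-OHT replicate 1 and -0.12 without 4-OHT replicate 2. The MT-CO2 estimate was -0.18 and called without 4-OHT replicate 2 (edgeR adjusted p = 0.0156), -0.04 without 4-OHT replicate 1 (0.750), and called with no filter (0.0438). The groups overlapped for MT-CO2 and MT-CO3, and for the sum over the 3 genes (9463 ± 317 and 9200 ± 526 CPM, SD, n = 3).

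For the ATP synthase, MT-ATP6 had 1433, 1396 and 1390 CPM in control and 1222, 1437 and 1429 CPM in 4-OHT libraries (log2 fold change -0.05, SE 0.0467, edgeR adjusted p = 0.698). MT-ATP8, a small accessory subunit, had 73.2, 74.7 and 74.8 against 69.9, 82.3 and 95.5 CPM (0.16, SE 0.0766, adjusted p = 0.311). The control values of MT-ATP8 lay close together and the 4-OHT values on both sides of them. The MT-ATP8 estimate was 0.27 and called without 4-OHT replicate 1 (edgeR adjusted p = 0.0167), 0.03 without 4-OHT replicate 3 (0.872), and called with no filter on low counts (0.00446). The overlap of these genes printed above makes the split of reads between them uncertain.

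One library carried much of the spread of the protein-coding genes. The lowest value was in 4-OHT replicate 1 for 11 of the 13, and the SD was larger in the 4-OHT group for 12 of the 13.

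**Figure D3:**
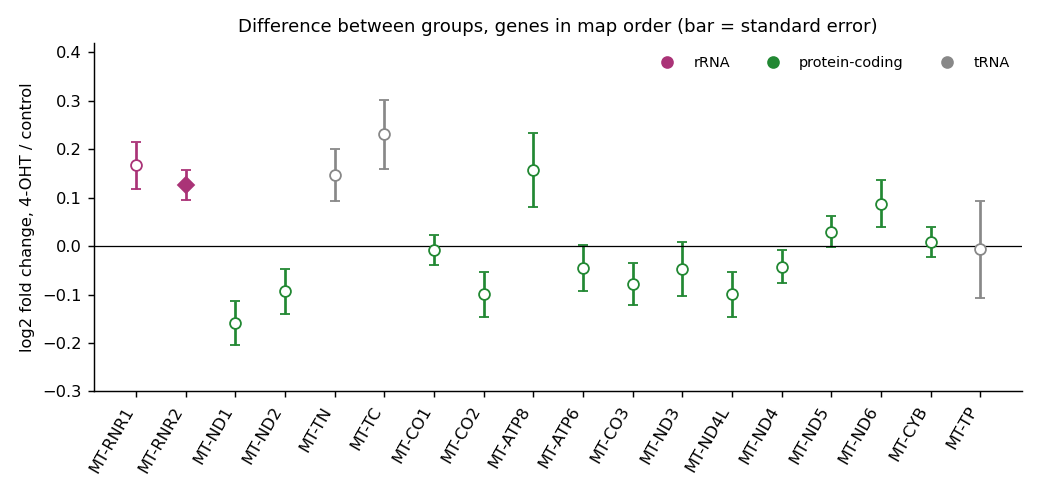
Log2 fold change (4-OHT over control, linear axis) with its standard error for the rRNA and protein-coding genes and the 3 most counted tRNA genes, in map order and coloured by class. MT-RNR2, the filled diamond, is the gene that passed the test at an adjusted p of 0.05.

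Each gene was also set against the mitochondrial counts of its library. On this scale, the groups did not overlap for 9 of the 36 genes tested, against 16.1% of all genes handled in the same way. These were both rRNA genes, MT-ND1, MT-ND2 and MT-CO3, and the tRNA genes MT-TV, MT-TN, MT-TC and MT-TG. MT-ND1 made up 2.92%, 3.06% and 3.04% of mitochondrial counts in control and 2.63%, 2.74% and 2.80% in 4-OHT libraries, while MT-RNR2 made up 9.69%, 9.59% and 9.47% against 10.9%, 10.6% and 10.3%. Shares of one total are not independent of each other.

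Genes on the minus strand, MT-ND6 and 8 tRNA genes, held 2.86%, 2.91% and 2.73% of mitochondrial counts in control and 2.97%, 3.08% and 3.18% in 4-OHT libraries, and the groups lay apart (2.83% ± 0.0933 and 3.07% ± 0.105, SD, n = 3). For MT-ND6 alone they overlapped, with 2.33%, 2.38% and 2.17% against 2.37%, 2.44% and 2.57%. The strand setting of the counting was not given in the sources used here, so reads of the opposite strand may be included.

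**Figure D4:**
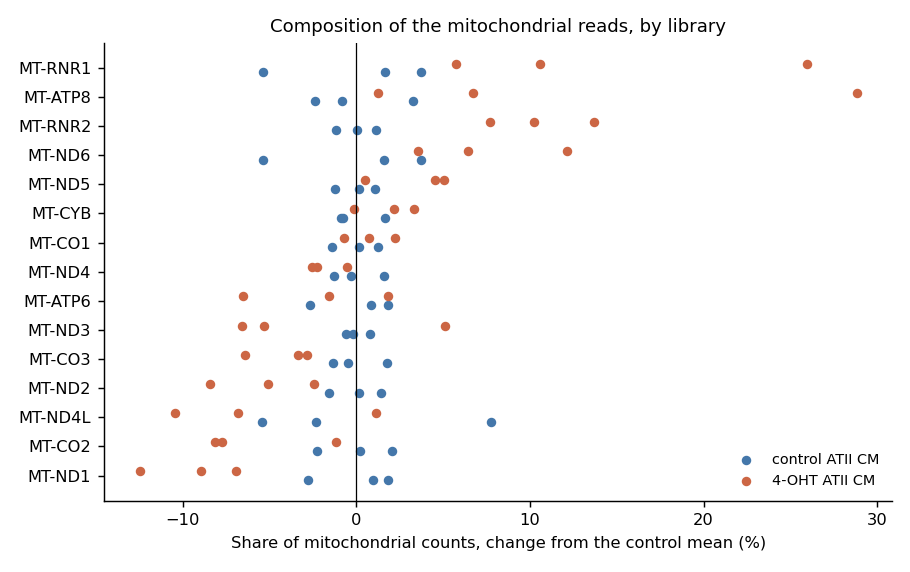
Change of each gene's share of the mitochondrial counts from the control mean (%, linear axis), one point per library, for the 15 rRNA and protein-coding genes. The 4-OHT points of MT-RNR1 and MT-RNR2 lie right of all control points, and those of MT-ND1, MT-ND2 and MT-CO3 lie left of them.

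The tRNA genes, of 59 to 75 bases, were counted very unevenly and none passed the test. Of the 21 tested, 5 had an estimate above 0 and 16 below, 5 had an unadjusted p under 0.05 (17.3% of all genes) and 3 had groups that did not overlap (22.1% of all genes). MT-TC, MT-TN and MT-TP, all on the minus strand, held most of the counts. The other 19 reached at most 79 counts in any library, and 15 of the 22 had under 100 counts summed over all 6.

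MT-TC (chrM:5761-5826) had 49.2, 45.4 and 52.2 CPM in control and 50.9, 64.8 and 56.8 CPM in 4-OHT libraries, with overlap and a log2 fold change of 0.23 (SE 0.0713, edgeR adjusted p = 0.0759). It was called in 4 of 16 alternatives. Its estimate was 0.31 and called without 4-OHT replicate 1 (adjusted p = 0.0118 by edgeR) and 0.14 without 4-OHT replicate 2 (0.329). MT-TN (chrM:5657-5729) had 43.1, 45.1 and 45.6 against 46.3, 53.8 and 48.0 CPM. Its groups did not overlap, and the log2 fold change was 0.15 (SE 0.0543, edgeR adjusted p = 0.151), or 0.08 without 4-OHT replicate 2. MT-TN was called in 1 of 16 alternatives. Together these neighbours of the light-strand origin held 80.3%, 83.4% and 80.6% of tRNA counts in control and 84.2%, 84.9% and 83.4% in 4-OHT libraries, which overlapped.

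MT-TP, the tRNA for proline at chrM:15956-16023 beside the control region, had 10.9, 10.2 and 11.2 CPM in control and 9.09, 11.1 and 11.9 CPM in 4-OHT libraries (log2 fold change -0.0065, SE 0.1001, edgeR adjusted p = 0.988). A gap of 20 or more bases to a neighbouring gene was found for 5 tRNA genes, namely MT-TF, MT-TN, MT-TC, MT-TK and MT-TP. The 3 most counted tRNA genes were among them, and so were MT-TF and MT-TK, which had few counts.

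Of the rarely counted tRNA genes, those whose groups did not overlap were MT-TV and MT-TG. MT-TV, for valine and between the rRNA genes, had 3, 1 and 1 counts in control and 6, 12 and 5 in 4-OHT libraries. MT-TG, for glycine, had 11, 6 and 10 against 3, 4 and 4 counts (log2 fold change -1.50, edgeR adjusted p = 0.0876). With so few reads these values rest on single counts, and counting error alone is large.

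**Figure D5:**
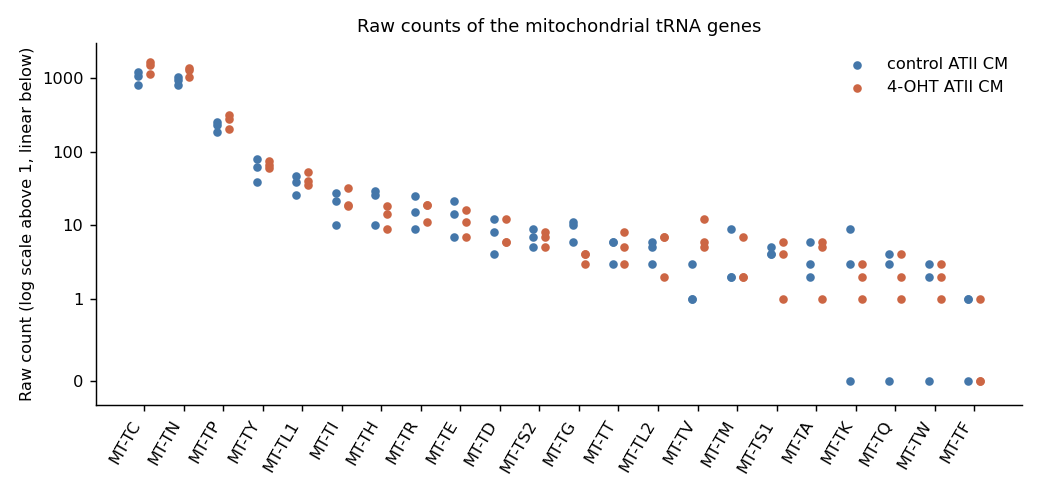
Raw counts of the mitochondrial tRNA genes per library (log axis above 1, linear below), ordered by their sum over 6 libraries. MT-TC, MT-TN and MT-TP stand above the rest, of which none exceeds 79 counts in a library.

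Nuclear genes for mitochondrial gene expression, for upkeep of mitochondrial DNA and for their regulation were read from the same fit. Of 73 such genes listed (transcription, processing, modification, decay, ribosome assembly, DNA maintenance and nuclear regulators), all 73 were tested, 0 passed as higher and 2 as lower, against 5.72% of all genes in either direction. The median log2 fold change was -0.03. PUS1, which makes pseudouridine in tRNAs, fell from 20.3 ± 1.34 to 16.9 ± 0.231 CPM (SD, n = 3), a log2 fold change of -0.26 (SE 0.0687, edgeR adjusted p = 0.0377). PPRC1, a coactivator of nuclear genes for mitochondria, fell from 57.0 ± 0.655 to 50.8 ± 1.45 CPM (-0.17, SE 0.0402, adjusted p = 0.0211). PUS1 was called in 7 of 16 alternatives and PPRC1 in 11 of 16. Without control replicate 3, 4-OHT replicate 1 or 4-OHT replicate 2, and with the mitochondrial total as library size, 0 of the 73 passed.

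TFAM, which packages mitochondrial DNA and starts transcription, had 26.0, 27.2 and 26.6 CPM in control and 25.4, 25.5 and 25.6 CPM in 4-OHT libraries (log2 fold change -0.06, edgeR adjusted p = 0.655). POLRMT, the mitochondrial RNA polymerase, had 34.3, 38.7 and 36.1 against 36.0, 37.7 and 39.3 CPM (0.05, adjusted p = 0.691). LRPPRC, which stabilises mitochondrial mRNAs, had 87.7, 81.8 and 87.7 against 81.7, 80.8 and 79.7 CPM (-0.09, edgeR adjusted p = 0.257). LRPPRC was called in 1 of 16 alternatives. The TFAM and LRPPRC groups did not overlap, as for 17 of the 73 genes and 22.1% of all genes.

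Copies of mitochondrial DNA in the nuclear genome can share reads with the genes described. Of 404 such copies listed, 8 passed the filter. MTATP6P1 on chromosome 1 had 2692 to 3491 counts per library, equal to 8.95% to 10.8% of those of MT-ATP6 (log2 fold change -0.07, edgeR adjusted p = 0.601). MTND2P28 had 1837 to 2523 counts, or 18.6% to 20.3% of MT-ND2 (-0.17, adjusted p = 0.0730). MTCO1P12 had 263 to 296 counts (-0.16, adjusted p = 0.525), MTND4P12 had 12 to 21 and MTND5P11 had 1 to 4. Windows of 150 bases identical to nuclear sequence made up 15.7% of MT-ND2, 14.5% of MT-CO1, 10.4% of MT-RNR1 and 1.12% of MT-ND1, and 0 of the windows of MT-RNR2 and the other protein-coding genes. A stretch of chromosome 1 (629084-634924) aligned to chrM:3914-9755 with 98.5% identity, so 0 identical windows does not exclude sharing of reads. Levels of MT-ND1, MT-ND2, MT-CO1, MT-RNR1 and MT-ATP6, and of other genes in that stretch, are therefore uncertain by the reads assigned to copies. The treatment of reads with several matches was not given in the sources used here.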

How the data were processed

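PolyA RNA of MRC5 cells was sequenced as paired-end reads in 6 libraries, 3 per group. The transgene of the ATII cells is not reported here. The authors trimmed reads with Trim Galore, aligned them with HISAT2 2.1.0 to GRCh38 and counted them per gene with featureCounts 1.6.5 (submitters' processing notes), and the deposited table holds whole-number counts, not normalized. The annotation release, strand setting and treatment of reads with several matches or spanning 2 genes were not given in the sources used here. PolyA selection and short genes limit how far counts of rRNA and tRNA genes reflect their RNAs.

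Members were the rows on chromosome M. The members and the gene lists were chosen with earlier results of these data known. Repeated rows of 45 identifiers were summed. Counts were tested with edgeR 4.0.16 (R 4.3.3) by the quasi-likelihood test over all genes with at least 10 counts in sum, TMM scaling, group as the only term and Benjamini-Hochberg adjustment, a threshold of 0.05. The script was tested on simulated data. CPM are counts scaled to a common library total, with TMM factors. Shares were given by library with no test. The common biological coefficient of variation was 4.36%. Named genes were called members, all rRNA and protein-coding genes, the 3 tRNA genes of highest mean CPM and, after their values were seen, tRNA genes whose groups did not overlap; called factors with TFAM, POLRMT and LRPPRC; and the 5 most counted nuclear copies. Alternatives were DESeq2 1.42.0, limma 3.58.1 (voom), other scalings and filters, thinning, a replicate block and leaving out each library. Sequences came from hg38, and nuclear copies were searched there in 150-base windows, in and beside minimap2 alignments of chromosome M. Replicates of a group differed beyond sampling noise, so none was counted as a repeat.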

Additional observations from a re-analysis of the deposited data

How the results depend on the processing

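Among mitochondrial genes, 1 was called higher and 0 lower. DESeq2 called 3 higher and 1 lower, limma-voom 2 and 1, and the fit with no filter 5 and 2. DESeq2 size factors, the library total, edgeR's own expression filter and the replicate block each gave 1 lower. Leaving out one library gave 0 to 4 higher (0 without control replicate 3 or 4-OHT replicate 2, 4 without 4-OHT replicate 1) and 0 to 2 lower. For the nuclear factors, 2 were called; DESeq2, the replicate block and thinning to the smallest total gave 1, the mitochondrial total as library size 0, no filter 3, and leaving out one library 0 to 2. MT-RNR2 was called in 12 of 16 alternatives (adjusted p 0.000304 to 0.235), MT-ND1 in 9 of 16 (0.000540 to 0.306) and MT-RNR1 in 5 of 16 (0.000134 to 0.219).

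The sign turned for genes near 0. MT-CO1 gave 0.011 with the mitochondrial total as library size, 0.0018 with no filter and -0.035 to 0.030 on leaving out one library. MT-TP gave 0.0080, 0.0027 and -0.095 to 0.097. On leaving out one library, MT-ATP6 ran from -0.087 to 0.032, MT-ND3 from -0.14 to 0.021, MT-ND4 from -0.075 to 0.0077 and MT-CYB from -0.016 to 0.045. The cause was not tested.

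Deviations of log2 CPM from the group mean correlated between same-numbered libraries at -0.0145, -0.104 and -0.0932 over 9690 genes. This gave no sign that the numbers pair the samples. Over all genes, 1090 calls became 985 with the replicate block, 611 with the mitochondrial total, 663 without control replicate 3, 533 without 4-OHT replicate 2 and 615 without 4-OHT replicate 3, but 1530 without control replicate 2 and 1601 with no filter. Depth limits the tRNA genes, of which 15 had under 100 counts in sum.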
